A study of Mus musculus with 2 samples.

Results

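Toll-like, NOD-like and RIG-I-like sensors were examined in mouse lung cells sorted for SPC/GFP and EpCAM (SPC/GFP+ EpCAM+), after 3 months of smoke or of air. The set was taken by platform gene symbol: every Toll-like receptor gene, every Nlr gene apart from Nlrc5, Nod1 and Nod2, and 11 named co-receptors, adaptors and RNA sensors. It held 47 genes of 19505, each with 1 row of the 22206 rows of the table. Each condition was 1 Clariom S Mouse array, a whole-transcript expression array: 1 for sorted cells of air-exposed control mice and 1 for sorted cells of smoke-exposed mice. SPC stands for surfactant protein C, which alveolar type 2 cells secrete; EpCAM is an adhesion protein on the surface of epithelial cells. Both samples went through the same reporter sort. The kind of smoke, the strain, age and sex of the mice, how many mice gave each sample and whether they were pooled are unstated in the sources used here.

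Pattern recognition receptors detect conserved microbial molecules and signs of cell damage. Toll-like receptors sit on the cell surface or in endosomes and signal through the adaptors MyD88 and TRIF to NF-kB and interferon regulatory factors, RIG-I-like helicases detect viral RNA in the cytosol and signal through MAVS on mitochondria, and NOD-like proteins detect peptidoglycan fragments or build inflammasomes. The alveolar epithelium meets inhaled particles and microbes directly, and alveolar type 2 cells are known to respond through these receptors.

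Signals were read as log2 values. A gene was counted above the level filter when its brighter array reached 4.57, the median of all values, and was called higher or lower when smoke minus air came to 1 or more, or to -1 or less, which is 2-fold. With 1 array per condition no difference has a replicate check, so no p-value or SD is given, and every difference compares these 2 samples, not the conditions. The number of arrays limits the precision. As a measure of scatter, each sensor was set beside the other genes in the same class of mean level, of 10 classes equal in size, and the robust SD of differences in those classes was 0.40 to 0.511 for the sensors above the filter.

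The 8 alveolar type 2 markers were all above the filter, 5 of them at the upper limit of the scale, 19.93, on both arrays. The 3 with a measurable difference had a median of 0.04, led by Napsa, an aspartic protease that processes surfactant protein, at 19.61 in air and 19.76 in smoke. That median was -0.04 when differences were centred within level classes.

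Of the 47 sensors, 17 were above the filter, and all 17 were above it on both arrays. This is 36.2% of the sensors, against 53.5% of all genes. Tlr2, Cd14 and Nlrx1 passed 2-fold on the higher side in smoke, 0 passed it on the lower side, and 14 were within 2-fold. Among the 10419 measurable genes above the filter, 3.94% were called higher and 2.48% lower. The 3 of 17 sensors called higher make 17.6%. In the other genes of the same level classes the share was 3.71%. That count is small and lies near its threshold: 2 of the 3, Cd14 and Nlrx1, dropped below 2-fold under quantile normalization, at 0.95 and 0.995, and 0 of the 17 lay outside the central 95% of genes of like level. The median log2 difference was 0.34 over the 17 and 0.06 over all genes above the filter. Over all 47 sensors it was -0.08, against -0.02 over all genes.

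**Figure D1:**
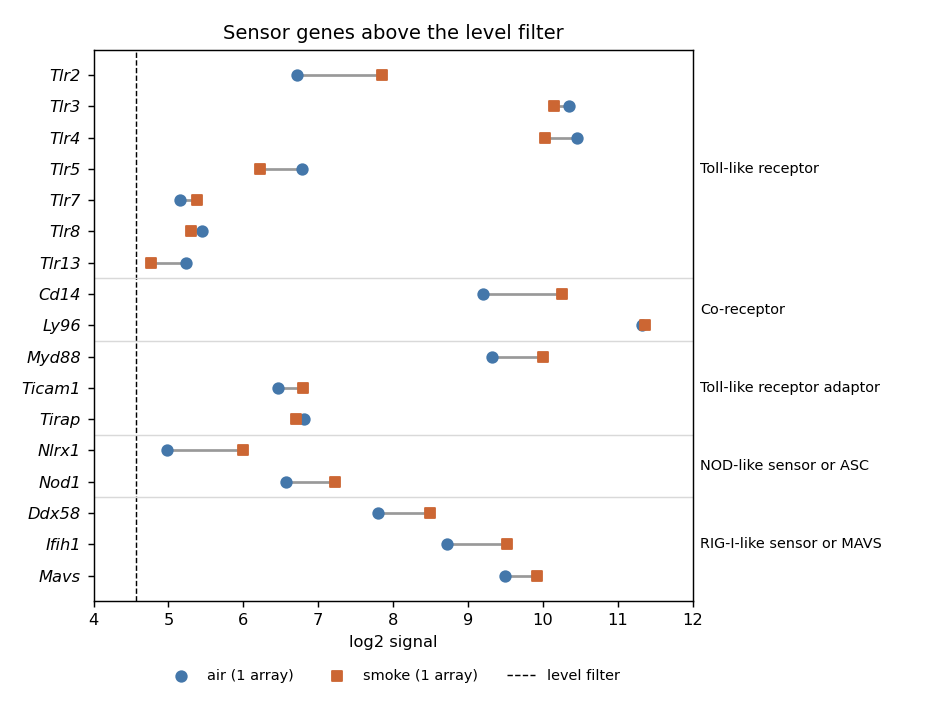
Log2 signal of the 17 sensor genes above the level filter on the air array (circles) and the smoke array (squares), 1 array each, grouped by role; the dashed line is the level filter at 4.57. Tlr2, Cd14 and Nlrx1 have the longest gaps, with smoke to the right, while 5 of the 7 Toll-like receptors have smoke to the left.

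Toll-like receptors went in both directions. Of the 12 receptor genes measured, 7 were above the filter, of which 2 were higher on the smoke array and 5 lower, with a median difference of -0.20 (-0.31 under quantile normalization). Over all 12, 4 were higher and 8 lower. For comparison, 54.3% of all genes above the filter had a positive difference and 44.7% a negative one. Over all 19489 measurable genes, whatever their level, 9302 were higher and 9971 lower.

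Tlr2, the surface receptor for bacterial lipoproteins, gave a signal of 6.72 in air and 7.85 under smoke, differing by 1.13 on the log2 scale (2.19-fold). This was the highest difference of the 47 sensors as deposited, although Nlrx1 was higher when centred within level classes (1.045) and Cd14 was higher (1.04) with an offset, 16 added to the linear signals. Tlr2 stayed past 2-fold with quantile normalization (1.04), with centring within level classes (1.01) and with the offset (1.02). Among 1947 other genes of like level, 3.08% had a difference at least as high. TLR2 recognises lipoproteins as a pair with TLR1 or TLR6, and the genes of both partners were below the filter on each array: Tlr1 read 3.88 in air and 3.61 in smoke, and Tlr6 read 3.42 and 3.53. Below the filter neither partner could be called higher or lower, so these values give no contrast with Tlr2.

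Among the 37 sensors with a promoter window, that of Tlr2 held the most matches to the NF-kB consensus. This 10-base motif was searched on both strands of 300 bases around each RefSeq start (250 before and 50 after). Cd14, Ly96, Tlr4 and Tlr7, all above the filter, had no window. In the Tlr2 window the motif stood in 2 places, and at the one further from the start overlapping matches ran on both strands. The stretch is printed because Tlr2 stayed past 2-fold under each scaling; it lies at chr3:83841599-83841858 (GRCm38.p6, minus strand, 5′ to 3′), ends 10 bases after the start, and has the matched letters in capitals.
Tlr2: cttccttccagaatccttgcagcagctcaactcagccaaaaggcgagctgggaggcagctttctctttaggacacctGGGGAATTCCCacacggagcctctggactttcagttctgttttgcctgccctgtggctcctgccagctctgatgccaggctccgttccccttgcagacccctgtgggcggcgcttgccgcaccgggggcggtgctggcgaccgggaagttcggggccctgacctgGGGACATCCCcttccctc
Of 27025 genes with a window, 5.14% held this motif, and of the 37 sensors with a window 3 did (8.11%): Tlr2, Tlr3 and Nlrp3. Tlr3 was lower in smoke and Nlrp3 was below the filter, so the 3 did not share a direction. Such a match describes letters only and does not show binding, which was not measured. Both motifs reported here were chosen with the values known.

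Tlr4, the receptor chain for bacterial lipopolysaccharide, was at 10.45 in air and 10.03 under smoke, differing by -0.42. Among the 1943 other genes of like level, 11.8% were at least as low. Tlr5, the flagellin receptor, was at 6.78 in air and 6.22 under smoke, differing by -0.56, with 10.4% of like-level genes at least as low. Both surface receptors were therefore on the lower side, within 2-fold, while Tlr2 was on the higher side. Markers of endothelial cells, a cell type known to express Tlr4, had a median of -0.80 on these arrays, and their part in the difference was not tested. In a bulk sample fewer cells of a type and less RNA per cell cannot be told apart. The gap between the differences of Tlr2 and Tlr4 was 1.55 on the log2 scale.

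The lipopolysaccharide receptor has more parts than Tlr4. Cd14, which hands lipopolysaccharide and other ligands to the receptors, was at 9.20 in air and 10.26 under smoke, differing by 1.06 on the log2 scale (2.08-fold), and 2.88% of like-level genes were at least as high. Ly96 encodes MD-2, the chain of the complex that binds the lipid itself, and was at 11.33 in air and 11.36 in smoke. Its difference of 0.03 became -0.05 under quantile normalization. Markers of neutrophils, a cell type known to express both Cd14 and Tlr2, had a median of 0.21 over the 10 measured. Those of macrophages and monocytes had a median of -0.16 over the 11 measured. The part of either cell type was not tested. The 3 genes of the lipopolysaccharide complex thus had a 2-fold higher, a nearly equal and a lower signal.

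Endosomal receptors, which read nucleic acids or microbial protein taken up by the cell, were all within 2-fold above the filter. Tlr3, the receptor for double-stranded RNA, was at 10.35 in air and 10.15 in smoke. Tlr7 and Tlr8, a pair related to single-stranded RNA sensing, were at 5.15 and 5.45 in air and at 5.38 and 5.30 in smoke. Tlr13, which reads bacterial ribosomal RNA, was at 5.23 in air and 4.76 under smoke, differing by -0.47, with 18.3% of like-level genes at least as low. The last 3 lay less than 1 log2 unit above the filter on both arrays.

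The remaining endosomal receptors were below the filter on both arrays and held the 2 sensors outside the central 95% of like-level genes. Tlr11, a receptor for the protozoan protein profilin, was at 4.01 in air and 2.67 under smoke, differing by -1.34, and 0.669% of like-level genes were at least as low. With the offset that difference was -0.52. Tlr9, the receptor for unmethylated CpG DNA, was at 2.45 and 3.19, a difference of 0.74 that was 0.23 with the offset, and 1.65% of like-level genes were at least as high. Tlr12, which works with TLR11, was at 2.97 and 2.56. Over all measurable genes 4.91% lay outside these limits, so 2 of 47 is no more than the background share.

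The Toll-like receptor adaptors were within 2-fold. Myd88, the adaptor used by all these receptors but TLR3, was at 9.32 in air and 10 under smoke, differing by 0.68 on the log2 scale (1.60-fold), with 10.8% of like-level genes at least as high. Ticam1 encodes TRIF, the adaptor of TLR3 and of internalised TLR4, and was at 6.46 and 6.80. Tirap, which brings MyD88 to TLR2 and TLR4 at the membrane, was at 6.81 and 6.70, and Ticam2, the bridging adaptor between TLR4 and TRIF, was below the filter at 2.27 and 2.19. Myd88 was the 1 adaptor whose difference passed 0.5.

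The RIG-I-like arm was higher on the smoke array in all 4 of its genes, with 3 above the filter and 0 past 2-fold. Ifih1 encodes MDA5, the sensor of long double-stranded RNA, and was at 8.72 in air and 9.52 under smoke, differing by 0.80 on the log2 scale (1.74-fold). Ddx58 encodes RIG-I, the sensor of RNA with a 5′ triphosphate, and was at 7.80 and 8.49, a difference of 0.69. Mavs, the mitochondrial adaptor that both helicases use, was at 9.50 and 9.92, a difference of 0.42. Shares of 6.64%, 12.3% and 24.9% of like-level genes were at least as high as Ifih1, Ddx58 and Mavs. Each lay inside the central 95% of genes of like level. Dhx58 encodes LGP2, the helicase that modulates the other two, and was below the filter at 3.54 and 3.56.

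A second motif was read in the same windows. The interferon-stimulated response element was searched as GAAANNGAAA on both strands, and no sensor window held both motifs. It stood in the windows of 3.99% of all genes and of 6 of the 37 sensors with a window (16.2%): Ddx58, Ifih1, Myd88, Tlr6, Tlr11 and Nlrp5. The first 3 were the only ones of these above the filter, and were 3 of the 13 sensors above the filter that had a window. They are printed because they held the match, were above the filter and had a higher signal in smoke. Tlr2, Ticam1, Mavs, Nlrx1 and Nod1 were also above the filter and higher in smoke, and their windows held no match to this motif. Each printed stretch is from GRCm38.p6, minus strand of the genome, 5′ to 3′, with the match in capitals. The Myd88 stretch at chr9:119340019-119340268 holds the 250 bases before the start. The Ddx58 stretch at chr4:40239796-40239825 and the Ifih1 stretch at chr2:62646206-62646235 hold 30 bases each after the start, where their matches lie. The Ddx58 match is on the strand opposite to the gene.
Myd88: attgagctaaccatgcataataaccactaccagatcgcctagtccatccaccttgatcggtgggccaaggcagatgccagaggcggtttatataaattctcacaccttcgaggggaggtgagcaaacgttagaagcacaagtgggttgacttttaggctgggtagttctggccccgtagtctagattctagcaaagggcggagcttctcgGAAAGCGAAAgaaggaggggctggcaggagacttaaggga
Ddx58: agTTTCGATTTCctatggccagccggctag
Ifih1: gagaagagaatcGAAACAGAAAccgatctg
Tlr11 and Nlrp5, which also held the letters, were lower in smoke and below the filter. A window without a match says only that these letters are not in it.

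NOD-like genes were mostly too low to compare. Of 25 genes in this group, including Pycard, 2 were above the filter, and both were higher in smoke. Nlrx1, a mitochondrial member of the family known as a modulator of antiviral signalling, was at 4.98 in air and 5.99 under smoke, differing by 1.01 on the log2 scale (2.01-fold), and 3.65% of 1944 like-level genes were at least as high. Nlrx1 stood close to the filter in air, and its difference was 0.74 with the offset. Nod1, the sensor of a diaminopimelic acid peptide of peptidoglycan, was at 6.57 and 7.22, a difference of 0.65, with 12.9% of like-level genes at least as high. Nod2, the muramyl dipeptide sensor, was below the filter at 2.99 and 2.56.

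The inflammasome sensors of the set and their adaptor were below the filter on both arrays. Nlrp3, the most studied inflammasome sensor, read 3.21 in air and 3.47 in smoke, and Nlrc4, which acts on flagellin and secretion system proteins with NAIP proteins, read 2.85 and 2.38. Pycard, the gene of the adaptor ASC that links these sensors to caspase-1, was at 4.08 and 4.14. All 19 Nlrp genes were below the filter, with 14 lower and 5 higher in smoke, a median difference of -0.18 and a range from -0.63 for Nlrp2 to 0.73 for Nlrp4c. Other genes in their level classes also leaned lower, with class medians from -0.12 to -0.05. Several of these are near-identical copies, such as the Nlrp1, Nlrp4 and Nlrp9 genes, which probes may not separate. Nlrp2, Nlrp5 and Nlrp14 are known mainly from oocytes and the germ line, and Nlrp6 from intestinal epithelium.

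The 30 sensors below the filter ran from 2.03 to 4.41 on either array. Of these, 20 were lower and 10 higher in smoke, with a median of -0.17, beside -0.08 for all genes below the filter, which thus leaned the same way. The sign of Nlrp1b and Nlrp4b depended on the scaling. The filter bounds what can be compared here and does not show that a gene was silent.

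**Figure D2:**
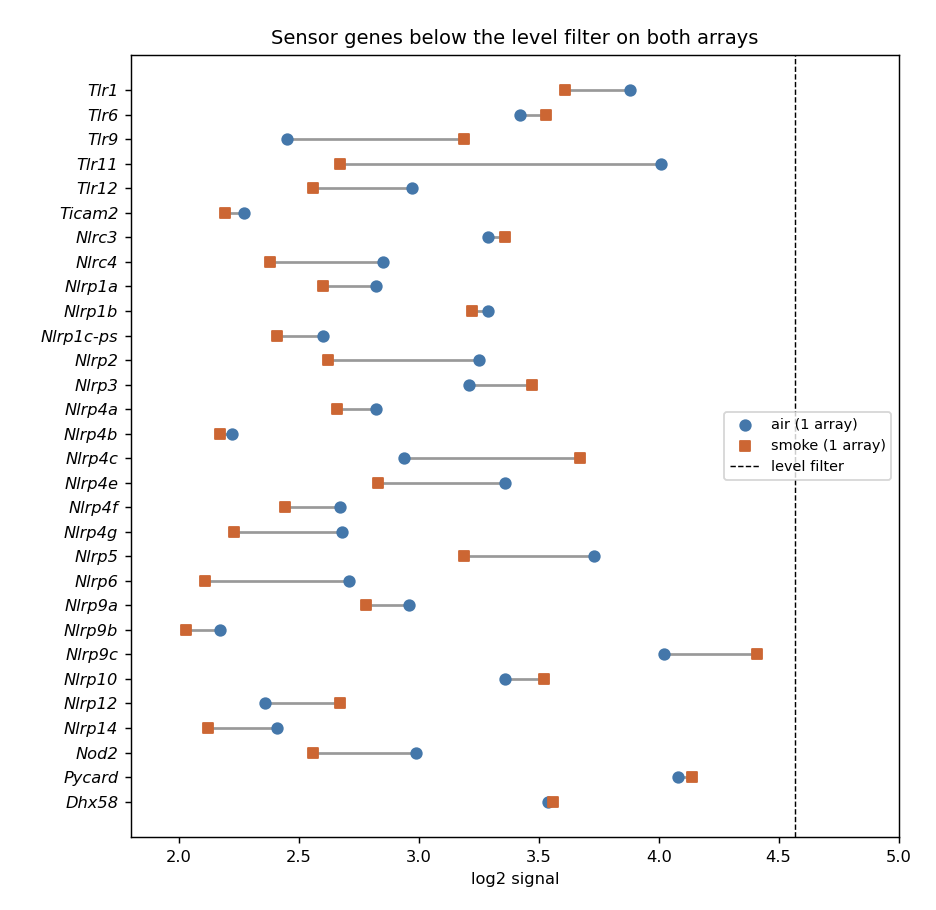
Log2 signal of the 30 sensor genes below the level filter on the air array (circles) and the smoke array (squares), 1 array each; the dashed line is the filter at 4.57. All points lie between 2.03 and 4.41, and Tlr11 has the widest gap, from 4.01 in air to 2.67 in smoke.

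The Toll-like receptors lay mostly on the lower side and the other sensors above the filter mostly on the higher side. Outside the Toll-like receptors, 9 of 10 sensors above the filter were higher in smoke, with a median of 0.665, and Tirap, at -0.11, was lower. Under quantile normalization or centring by level, 8 of the 10 were higher, because Ly96 changed sign. As deposited, 54.3% of all genes above the filter were higher. The lean was seen above the filter only: over all 35 sensors outside the Toll-like receptors, 17 were higher and 18 lower, with a median of -0.05. Differences of at least 0.5 were seen in 7 of the 17 sensors above the filter (41.2%), namely Tlr2, Cd14, Nlrx1, Ifih1, Ddx58, Myd88 and Nod1, against 18.8% of all genes above the filter. Differences of -0.5 or lower were seen in Tlr5 (5.88% of the 17), against 12.7%. The split by role was noticed in these values and has no test.

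**Figure D3:**
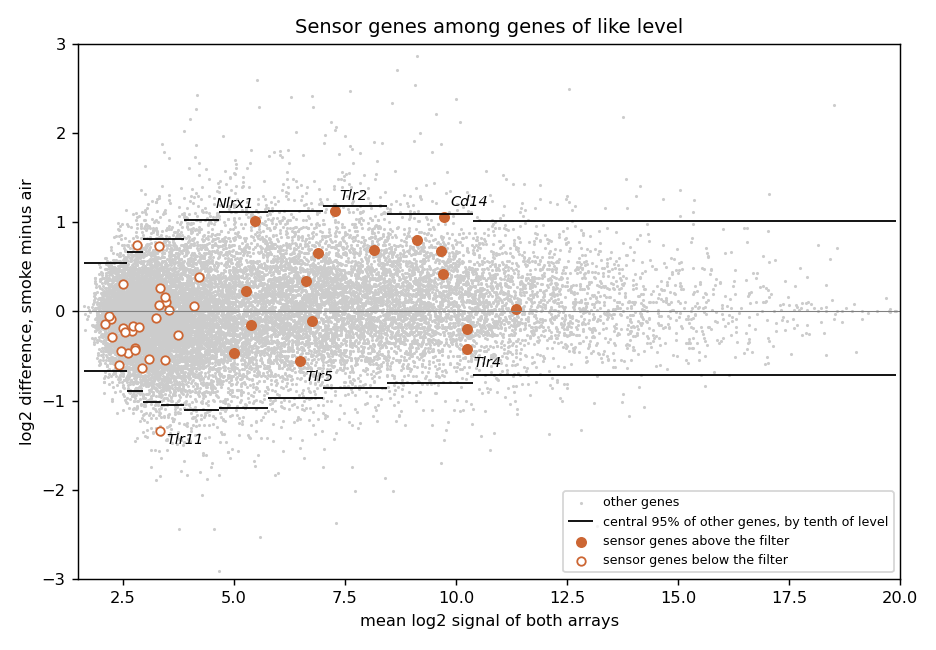
Log2 difference, smoke minus air, against mean log2 signal for sensor genes above the filter (filled), sensor genes below it (open) and other genes (grey), with bars for the central 95% of other genes in each of 10 level classes; 11 other genes lie outside the drawn range of -3 to 3. Tlr2, Cd14 and Nlrx1 lie just under the upper bars, Tlr9, below the filter, lies above its bar, and Tlr11 lies below the lower bar.

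The genes around the sensors were read from 7 lists of 104 genes, of which 93 were in the table; the others were not analysed here. Of the 75 above the filter, 6 were called higher and 3 called lower, and their median was 0.09. The figures to set each list beside are those of all genes above the filter: 3.94% called higher, 2.48% called lower and a median of 0.06.

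Proteins that carry or assist the receptors went both ways, with 1 of 14 above the filter called higher, 1 called lower (3.94% and 2.48% over all genes) and a median of -0.205. Lbp, the serum protein that delivers lipopolysaccharide to CD14, was at 14.73 in air and 15.98 under smoke, differing by 1.25 on the log2 scale (2.38-fold). Cnpy3, a folding partner of Toll-like receptors in the endoplasmic reticulum, was at 6.68 and 5.60, a difference of -1.08. That difference was -0.88 with the offset. Lbp and Cd14, which act one after the other in passing on lipopolysaccharide, were both past 2-fold on the higher side as deposited. Under quantile normalization Cd14 was at 0.95. Ly96 and Tlr4, the other genes of the lipopolysaccharide complex, had differences of 0.03 and -0.42. Unc93b1, which escorts endosomal receptors out of the endoplasmic reticulum, was at 5.33 and 5.97.

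Signalling kinases and ligases below MyD88 were within 2-fold in all 11 genes above the filter, with 5 higher, 6 lower and a median of -0.02 that was 0.02 when centred by level. Tab2, a ubiquitin-binding partner of the kinase TAK1, had the largest difference, 0.67, at 9.58 in air and 10.25 in smoke. In the TRIF and RIG-I arm, 10 of 12 genes above the filter were higher and 2 lower, with a median of 0.145 that was 0.01 under quantile normalization. Irf7, the interferon regulatory factor, was the 1 gene past 2-fold, at 4.11 and 5.54; it passed the filter by its smoke signal alone, and its difference of 1.43 was 0.91 with the offset.

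Feedback inhibitors of these pathways had 3 of 15 genes above the filter called higher, against 3.94% of all genes above the filter, 0 called lower, against 2.48%, and a median of 0.23, which was also the median over all 17 measured. Tnfaip3 encodes the ubiquitin-editing enzyme A20 and was at 8.73 in air and 10.61 with smoke, 3.68-fold higher. Zc3h12a encodes the RNase Regnase-1, which degrades cytokine mRNA, and was at 7.37 and 9.06, 3.23-fold higher. Nfkbia, the NF-kB inhibitor IkBα, was at 10.57 and 12, 2.69-fold higher. All 3 are themselves known NF-kB target genes, and each had a larger difference than any sensor. A part of NF-kB in these differences was not tested. The 12 inhibitors within 2-fold ran from -0.48 for Tnip3 to 0.92 for Usp18, which passed the filter by its smoke signal alone. Among them Nfkbiz was at 0.03 and Tnip1 at 0.24. The kinase-level inhibitors Tollip and Irak3 had log2 differences of -0.38 and -0.46.

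In the NOD pathway list 1 of 7 genes above the filter was called: Birc3, the ubiquitin ligase cIAP2, was at 14.02 in air and 15.28 with smoke, 2.39-fold higher. Inflammasome effectors had 0 of 9 above the filter called higher and 2 called lower, where 3.94% and 2.48% of all genes above the filter were; their median was -0.21, and that over all 17 measured was 0.02. Il18, a cytokine released after inflammasome cleavage, and P2rx7, the ATP-gated channel that triggers NLRP3, were at 4.69 and 4.76 in air and at 3.38 and 3.60 in smoke. Both passed the filter by their air signal alone, and with the offset their differences of -1.31 and -1.16 became -0.66 and -0.62. Gsdmd, the pore-forming protein of pyroptosis, was at 7.52 and 6.68, a difference of -0.84. Casp4 went the other way, at 6.63 and 7.35, a difference of 0.72. Of the 9 effectors above the filter 3 were higher and 6 lower in smoke, and of all 17 measured 9 were higher and 8 lower. DNA sensing genes had 0 of 7 past 2-fold, with a median of 0.31 and the largest difference in Mndal, a member of the interferon-inducible p200 family, at -0.80.

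Many of these sensors are known from myeloid and endothelial cells, so markers of such cells were read on the same arrays. Endothelial markers were lower in 6 of 7 genes, with a median of -0.80, and their summed signal was 15.24 in air and 14.57 in smoke on the log2 scale. Cldn5, a tight junction gene, and Eng, endoglin, were called lower, at -1.17 and -1.03. The median was -0.905 under quantile normalization.

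Myeloid markers did not move one way. Of 11 macrophage and monocyte markers measured, 4 were above the filter, all lower by less than 2-fold, with a summed signal of 9.50 in air and 9.31 in smoke; Ccr2, a monocyte chemokine receptor, had the largest difference of these, -0.58, but passed the filter by its air signal alone. The median over all 11 was -0.16. Mrc1 was the brightest of the list, at 8.82 in air and 8.59 in smoke. Csf1r, at 6.69 and 6.54, and Mertk, at 5.07 and 5, were also above the filter on both arrays. The macrophage markers Adgre1, Marco and Siglecf were below the filter on both arrays. Of 10 neutrophil markers, 5 were above the filter, 4 higher and 1 lower, with a median of 0.60, but Retnlg, a resistin-like gene, passed by its smoke signal alone, and the median over all 10 was 0.21. The summed signal was 9.16 in air and 9.62 in smoke. Cxcr2, a neutrophil chemokine receptor, had the largest difference of those above the filter, 0.98, while Mpo, Elane, Camp, Ngp and Mmp8 were below the filter on both arrays; Mmp8, a collagenase, was at 3.47 and 4.46, the largest difference of the whole list at 0.99. Tlr2 and Cd14 were higher on the array with the higher neutrophil sum and the lower macrophage sum. Any part of these cells in the 2 differences was not tested. The brightest neutrophil marker was Csf3r, at 8.12 in air and 8.72 in smoke, while S100a8 and S100a9 differed by 0.28 and -0.19.

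The other leukocyte lists held few genes above the filter. Of 7 dendritic cell markers 1 was, Ccr7, a chemokine receptor shared with lymphocytes, with a difference of -0.50; the summed signal was 7.27 in air and 6.92 in smoke. Of 7 lymphocyte markers 5 were, with 1 called higher, Cd3d, a T cell receptor chain at 3.63 and 4.66 that passed by its smoke signal alone, and a summed signal of 8.58 and 8.66. Ptprc, the gene of the pan-leukocyte protein CD45, was at 7.64 in air and 7.59 in smoke, which is above the filter on both arrays.

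**Figure D4:**
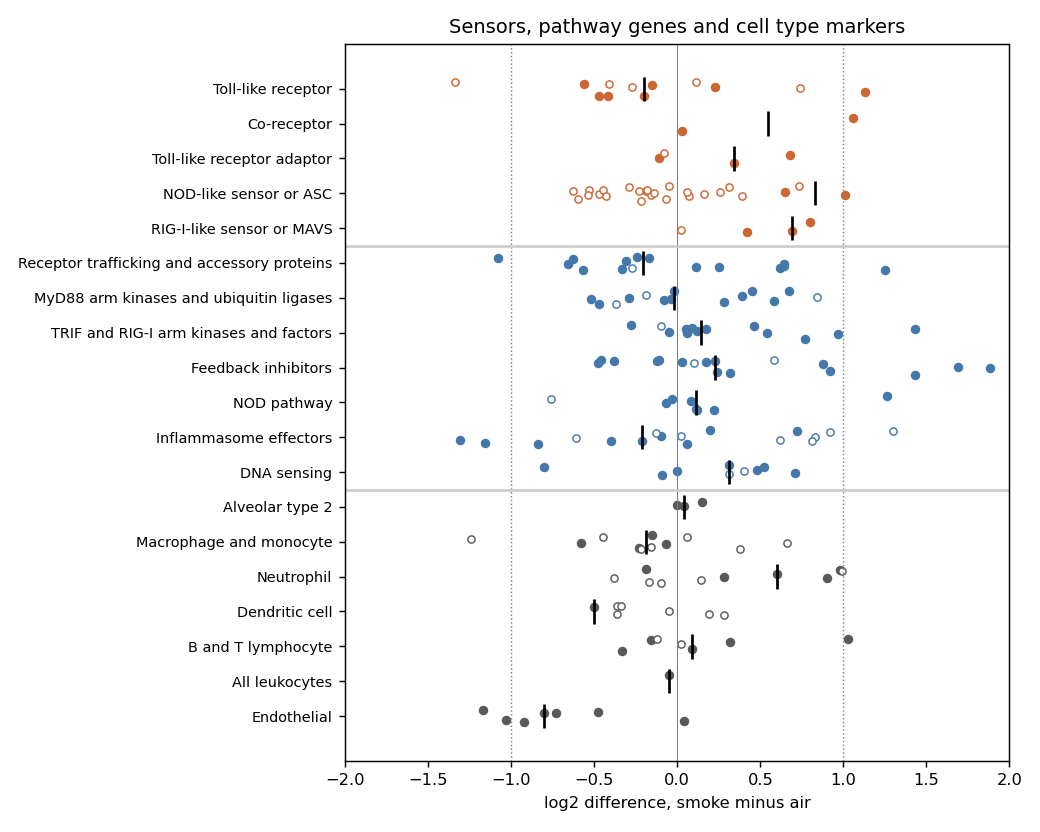
Log2 difference, smoke minus air, of single genes (points) in the sensor groups, the 7 pathway lists and the 7 marker lists; filled points are above the level filter, open points below it, black ticks are medians of filled points, dotted lines mark 2-fold, and points are spread vertically only for legibility. Feedback inhibitors hold the points furthest to the right, Tnfaip3 and Zc3h12a; the RIG-I-like group lies to the right of 0 and the endothelial markers lie to the left, apart from 1.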

How the data were processed

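The authors deposited 1 log2 signal per platform identifier and array; the log2 scale was inferred from values between 1.55 and 19.93. The tool was Transcriptome Analysis Console, version not given, per the submitters' processing notes; the sources used here give no background correction, normalization or build. The array medians were 4.61 (air) and 4.53 (smoke). Of 22206 rows, 19572 had 1 gene symbol, 0 several and 2634 none here; rows of a gene were averaged, giving 19505 genes. The 47 sensor symbols matched RefSeq identifiers. The 16 genes that reached the upper limit on each array were left out, leaving 19489, of which 10419 were above the filter. The 10 level classes split genes by mean log2 signal; their shares and ranges leave out the sensors. Promoter windows are RefSeq's (GRCm38.p6).

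Sensors, gene lists and thresholds were chosen with earlier results of these data known. Every sensor is accounted for; of other lists, members past 2-fold above the filter are named, or else the one with the largest difference, and further named genes were chosen after their values were seen. Alternatives were other filters, thresholds of 1.5-fold and 3-fold, quantile normalization, centring within level classes, an offset of 16 on the linear scale and the brightest row per gene. Fold values hold on the deposited scale only. The calls were tested on simulated data whose planted changes were larger, and whose scatter was smaller, than those of the sensors here. That run does not bear on calls near 2-fold. Python 3.11.15, numpy 2.4.6 and pandas 2.3.3 were used.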

Additional observations from a re-analysis of the deposited data

How the results depend on the processing

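Without replicates, an alternative was compared by direction and size only. The count of 3 sensors called higher was 7 at 1.5-fold, 0 at 3-fold and 1 under quantile normalization, where Tlr2 alone passed; it was 2 or 3 under the other filters, centring, the offset and the brightest row. At 1.5-fold 14.5% of all genes above the filter were called higher, and at 3-fold 0.633%. The count of 0 called lower was 1 without a filter, by Tlr11, and 0 under the other alternatives. The median of 0.34 over sensors above the filter was 0.68 with a filter at the 75th percentile, which kept 9 sensors, and -0.08 without a filter, by the addition of the 30 dim sensors; it was 0.27 under quantile normalization. The difference of each of the 47 sensors moved by less than the robust SD of like-level genes under quantile normalization, centring and the brightest row. With the offset 6 moved by that much or more, all below the filter: Tlr11 (to -0.52), Tlr9, Nlrp2, Nlrp4c, Nlrp4g and Nlrp6. No paired analysis was possible because each condition had 1 array, and no array could be left out.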
